A study of Mus musculus with 8 samples.

Results

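Messenger RNA of the Notch receptors, their canonical ligands and the transcriptional targets Hes1 and Hey1 was compared between a mouse lung carcinoma line and a mouse lung epithelial line. The members were the 10 genes Notch1, Notch2, Notch3, Notch4, Dll1, Dll4, Jag1, Jag2, Hes1 and Hey1, picked by name from the 43346 genes of the deposited table, in which each name occurred once. LLC1 is the Lewis lung carcinoma line, derived from a tumour of a C57BL mouse. MLE12 is an epithelial line from a lung tumour of a transgenic mouse in which the promoter of the surfactant protein C gene drove SV40 large T antigen. Each line was sequenced in 4 libraries, and the cells of both had been grown to about 80% confluence with no reagent added. Both lines derive from tumours, and the design holds 1 line of each kind, so that the identity of a line and its other traits cannot be told apart.

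Notch receptors are single-pass membrane proteins that are activated by ligands on a neighbouring cell. The ligands are the Delta-like and Jagged proteins, and contact with them exposes the receptor to shedding by ADAM10 and then to cleavage by gamma-secretase. The freed intracellular domain enters the nucleus, binds the DNA-binding protein RBPJ and the MAML coactivators, and activates genes that include the basic helix-loop-helix repressors of the HES and HEY families. In the lung the pathway is known for directing airway progenitors toward secretory and away from ciliated fates.

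Upstream sequence is shown for the ligand gene with the highest level in each line, and for a HES family gene that carries the recognition word of RBPJ. The sequences are from RefSeq (GRCm38.p6), 250 bases directly upstream of a transcript start, on the strand of the gene. The first 2 have CG dinucleotides in capitals.
Jag2 (chr12:112929496-112929745, minus strand): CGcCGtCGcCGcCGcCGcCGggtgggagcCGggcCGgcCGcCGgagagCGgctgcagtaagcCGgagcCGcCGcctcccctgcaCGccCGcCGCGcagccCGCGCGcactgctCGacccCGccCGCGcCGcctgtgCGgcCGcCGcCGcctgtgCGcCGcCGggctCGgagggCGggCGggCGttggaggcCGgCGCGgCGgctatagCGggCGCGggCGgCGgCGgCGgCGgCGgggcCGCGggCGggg
Dll1 (chr17:15375824-15376073, minus strand): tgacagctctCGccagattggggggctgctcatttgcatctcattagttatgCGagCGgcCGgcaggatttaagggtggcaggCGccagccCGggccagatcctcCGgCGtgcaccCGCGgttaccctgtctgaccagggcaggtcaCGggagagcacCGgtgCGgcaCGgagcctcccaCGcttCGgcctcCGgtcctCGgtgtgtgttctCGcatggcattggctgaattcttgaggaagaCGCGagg
The third has each GTGGGAA, or its reverse complement TTCCCAC, in capitals.
Hes5 (chr4:154960673-154960922, plus strand): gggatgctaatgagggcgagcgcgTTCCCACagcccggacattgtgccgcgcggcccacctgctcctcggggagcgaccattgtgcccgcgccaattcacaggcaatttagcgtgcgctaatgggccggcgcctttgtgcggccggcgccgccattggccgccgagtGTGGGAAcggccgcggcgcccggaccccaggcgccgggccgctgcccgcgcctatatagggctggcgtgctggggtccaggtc
The Jag2 window held 54 CG dinucleotides and 87.2% G and C. Of the 32851 windows in the table, 3 held more CG dinucleotides, and the median window held 6. The Dll1 window held 21 and lies inside the gene range of the deposited table, upstream of an inner start. A second Dll1 start listed in RefSeq (window at 15376933 to 15377182) had 13. RefSeq upstream windows were matched for 8 of the 10 members, and the set of windows used here held no entry for Hes1 or Hey1. The word GTGGGAA, searched on both strands, occurred in 5.42% of all windows. It was in no window of the 8 matched members. The Hes5 window held it on each strand and that of Hey2 held it too. The windows of Nrarp, another Notch target, and of the HES family gene Hes6 did not hold it. The letters alone do not show binding.

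The LLC1 libraries held 46.8 to 55.3 M counts each, the MLE12 libraries 48.6 to 76.7 M. Levels are in CPM (counts brought to one library size, with TMM scaling), per library or as mean ± SD over the 4 libraries of a line. A log2 fold change, given ± SE, is LLC1 divided by MLE12, and a negative value means a higher level in MLE12. The whole table was fitted in edgeR (quasi-likelihood test), with p-values adjusted by the Benjamini-Hochberg method over the 18546 genes tested, and a gene was called under an adjusted p of 0.05. Epithelial markers did not all go one way. The lung transcription factor gene Nkx2-1 measured 0.664 CPM (LLC1) and 147 CPM (MLE12), and of 5 alveolar markers 1 reached 1 CPM in LLC1 and 4 did in MLE12, where Sftpa1 was at only 0.0228 CPM. The cadherin gene Cdh1 measured 0.553 CPM (LLC1) and 154 CPM (MLE12). Epcam (0.0235 and 3.36 CPM) and Cldn3 (0.0475 and 13.8 CPM) were also higher in MLE12. The keratin genes Krt8 (209 and 106 CPM) and Krt18 (293 and 0.930 CPM) were higher in LLC1. Of the mesenchymal markers, Vim, Col3a1, Twist1 and Pdgfra were higher in LLC1, and Col1a1 was higher in MLE12. In bulk RNA, fewer cells of a type and less RNA per cell cannot be told apart.

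The Notch genes differed between the lines in both directions, gene by gene. MLE12 held more Notch1, Jag2 and Hes1, LLC1 held more Dll1, and the most abundant receptor, Notch2, was within 1.35-fold between the lines. Of the 10 members, 8 had enough counts to be tested; Dll4 and Hey1 did not. Called as higher in LLC1 were 3 members (Notch2, Notch4 and Dll1), and 40.7% of all genes tested were called in that direction. Called as higher in MLE12 were 5 (Notch1, Notch3, Jag1, Jag2 and Hes1), against 40.9% of all genes. With 81.6% of all genes called in either direction, a call alone says little about a gene. Tested against a minimum fold of 2 with edgeR's glmTreat, 1 member was higher in LLC1 (Dll1) and 4 were higher in MLE12 (Notch1, Notch3, Jag2 and Hes1), where 16.7% and 16.9% of all genes passed. Dll1 passed the filter on low counts through its LLC1 libraries alone, so its calls could go only that way. The CPM ranges of the lines did not overlap for any of the 8 tested members, as for 76.3% of all genes tested.

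**Figure D1:**
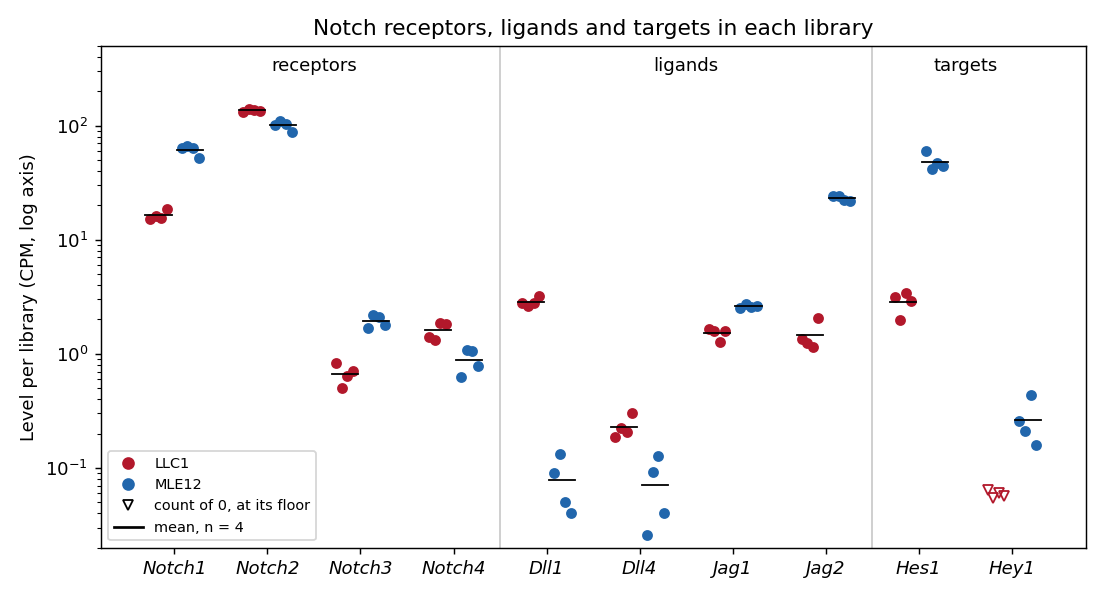
Level of each member in each of the 8 libraries, in CPM on a log axis, with LLC1 in red and MLE12 in blue. Black lines are means of 4 libraries, and open triangles mark libraries with a count of 0, drawn at the level that 3 counts would give. Jag2 and Hes1 lie more than 10-fold higher in MLE12, Dll1 more than 30-fold higher in LLC1, and Notch2 is near the top in both lines.

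Notch1, a receptor known for activating mutations in T cell leukaemia (ENSMUSG00000026923, chromosome 2, 26457903 to 26516663, mm10), stood at 15.2, 16.2, 15.5 and 18.7 CPM in the LLC1 libraries and at 63.6, 66.4, 63.8 and 52.6 CPM in the MLE12 libraries. Every MLE12 library was above every LLC1 library. The log2 fold change was -1.91 ± 0.08 (adjusted p = 1.9e-13), a fitted fold of 3.75. Noncoding gene models on the other strand overlap its end, 0610009E02Rik (506 counts in LLC1 and 2192 in MLE12) and Gm13568 (153 and 613), and without a stated strand setting their reads and those of Notch1 cannot be told apart.

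Notch2, a receptor of broad tissue use (ENSMUSG00000027878, chromosome 3, 98013538 to 98150367), was the member with the highest CPM in both lines. It stood at 133, 139, 137 and 135 CPM in LLC1 and at 102, 110.1, 104 and 88.5 CPM in MLE12. The lines were separate but close (log2 fold change 0.43 ± 0.05, adjusted p = 6.3e-07), and the difference did not pass the test against a fold of 2. MLE12 replicate 4, the shallowest library of its line, was the lowest of the line for both Notch1 and Notch2.

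Notch3 and Notch4 were rare in both lines. Notch3, the receptor best known from vascular smooth muscle (ENSMUSG00000038146, chromosome 17, 32120820 to 32166880), stood at 0.832, 0.505, 0.641 and 0.704 CPM in LLC1 and at 1.69, 2.19, 2.12 and 1.80 CPM in MLE12. It was higher in MLE12 by a log2 fold change of -1.55 ± 0.20 (adjusted p = 8.3e-07). Notch4, known mainly from endothelium (ENSMUSG00000015468, chromosome 17, 34564268 to 34588503), stood at 1.41, 1.31, 1.88 and 1.83 CPM in LLC1 and at 0.621, 1.07, 1.07 and 0.780 CPM in MLE12. Its log2 fold change was 0.85 ± 0.22 (adjusted p = 0.0015), so that these receptors differed in opposite directions. Markers of the cell types that usually hold them were also low. The summed level of 8 mural cell markers was 3.20 to 3.63 CPM in LLC1 and 5.90 to 7.55 CPM in MLE12, with Pdgfrb the largest part (1.61 and 5.56 CPM). The 8 endothelial markers summed to 0.571 to 1.12 CPM in LLC1 and 3.44 to 4.07 CPM in MLE12, where Tek made up 2.95 CPM, while Emcn, Erg and Tie1 had no count in either line. The part of these markers in the Notch3 and Notch4 values was not tested.

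The ligand genes divided between the lines. Jag2, a Jagged ligand (ENSMUSG00000002799, chromosome 12, 112908590 to 112929495), stood at 1.34, 1.23, 1.16 and 2.07 CPM in LLC1 and at 24.0, 24.2, 22.4 and 21.7 CPM in MLE12. Replicate 4 was the highest of the LLC1 libraries and still far below every MLE12 library. The log2 fold change was -3.98 ± 0.12 (adjusted p = 1.2e-15), a fitted fold of 15.8. Its relative Jag1 (ENSMUSG00000027276, chromosome 2, 137081456 to 137116644) showed a smaller difference in the same direction. It stood at 1.64, 1.57, 1.26 and 1.58 CPM in LLC1 and at 2.54, 2.76, 2.56 and 2.62 CPM in MLE12 (log2 fold change -0.79 ± 0.15, adjusted p = 7.3e-05). That difference did not pass the test against a fold of 2.

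Dll1, a Delta-like ligand of embryonic patterning (ENSMUSG00000014773, chromosome 17, 15367354 to 15376872), went the other way. It stood at 2.77, 2.64, 2.79 and 3.20 CPM in LLC1 and at 0.0906, 0.133, 0.0508 and 0.0400 CPM in MLE12, where the libraries held 7, 10, 4 and 2 counts. The log2 fold change of 5.10 ± 0.27 (adjusted p = 1.5e-12) was the largest in size among the tested members. Dll1 passed the filter on low counts through its LLC1 libraries, so a gene kept in this way had to differ. A noncoding gene on the other strand, A930024N18Rik, overlaps its start and had 120 counts in LLC1 and 6 in MLE12. The MLE12 mean was 2.75% of the LLC1 mean, while the lowest such share over the 2200 genes of at least 100 CPM in LLC1 was 0.160%.

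Dll4, the Delta-like ligand of sprouting endothelium (ENSMUSG00000027314, chromosome 2, 119325784 to 119335962), was barely detected. Its raw counts were 8, 12, 10 and 16 in LLC1 and 2, 7, 10 and 2 in MLE12. On the scaled level LLC1 held 0.230 ± 0.0521 CPM and MLE12 0.0714 ± 0.0469 CPM (n = 4 each), and the ranges did not overlap. The filter left it out of the fit; an exact two-sided permutation test of its CPM gave p = 0.0286 (0.0286 adjusted over Dll4 and Hey1), the smallest that 4 against 4 libraries allow. With no filter on low counts the edgeR log2 fold change was 1.59 ± 0.59 (adjusted p = 0.015). A noncoding gene on the other strand, Gm14207, overlaps the start of Dll4 and had 18 counts in LLC1 and 2 in MLE12. Of the endothelial markers, Cdh5 was also higher in LLC1 (45 counts against 7) and Tek was higher in MLE12 (12 against 839), and their part in the Dll4 value was not tested.

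Both targets were higher in MLE12. Hes1, a repressor that responds directly to the Notch intracellular domain (ENSMUSG00000022528, chromosome 16, 30064384 to 30067796), stood at 3.17, 1.96, 3.41 and 2.91 CPM in LLC1 and at 59.5, 41.6, 46.6 and 43.9 CPM in MLE12. LLC1 replicate 2 was the lowest of its line and MLE12 replicate 1 the highest of its line. The spread within each line was less than the gap between the lines. The log2 fold change was -4.07 ± 0.17 (adjusted p = 2.3e-09), a fitted fold of 16.9. The LLC1 mean was 5.97% of the MLE12 mean, and the lowest such share over the 2341 genes of at least 100 CPM in MLE12 was 0.325%.

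Hey1, the second repressor (ENSMUSG00000040289, chromosome 3, 8663359 to 8667256), had no count in any LLC1 library and 20, 16, 34 and 8 counts in the MLE12 libraries. Its MLE12 level was 0.266 ± 0.118 CPM. Over the 4 LLC1 libraries, with 204 M counts in all, a count of 0 allows 0.0147 CPM on plain library totals. That floor is 3 counts over the line, and would be higher where both mates of a fragment are counted, so no fold is given. The exact two-sided permutation p was 0.0286, again the smallest the design allows, and the same adjusted over the 2 untested members. Intervals and floors cover counting error only.

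Per length, the summed receptor level overlapped between the lines while the summed ligand level did not. Levels per length are FPKM, CPM divided by the gene length of the deposited table in kilobases. The receptors summed to 14.01, 14.6, 14.4 and 14.5 FPKM in LLC1 and 14.5, 15.6, 14.7 and 12.4 FPKM in MLE12. The ligands summed to 1.32, 1.26, 1.22 and 1.62 FPKM in LLC1 and to 6.39, 6.49, 6.01 and 5.82 FPKM in MLE12, without overlap. The ratio of receptor to ligand level was 10.8 ± 1.31 in LLC1 and 2.31 ± 0.142 in MLE12 (SD, n = 4). With the longest coding length of each gene instead, the receptors summed to 20.9 ± 0.385 in LLC1 and 22.2 ± 2.06 in MLE12. The ligands then summed to 2.23 ± 0.260 and 6.95 ± 0.350, still without overlap, so the ratio depends on the length used. The table's length for Jag2, 4054 bases, is below its longest GENCODE transcript of 5106 bases. These sums are descriptions, with no test.

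Notch2 made up 90.0% ± 0.845 of the receptor level in LLC1 and 67.3% ± 0.356 in MLE12. Notch1 made up 8.02% ± 0.710 in LLC1 and 30.2% ± 0.506 in MLE12. The rest, Notch3 and Notch4, was under 2% for each gene in each line. Among the ligands the leading gene differed. Dll1 accounted for 50.2% ± 3.12 of the ligand level in LLC1, with Jag2 at 26.1% ± 3.73 and Jag1 at 19.3% ± 2.43. In MLE12 Jag2 accounted for 92.1% ± 0.421, Jag1 for 7.29% ± 0.372 and Dll1 for 0.296% ± 0.146. The log2 ratio of Jag2 to Dll1 within a library was -0.95 ± 0.27 in LLC1 and 8.41 ± 0.71 in MLE12.

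**Figure D2:**
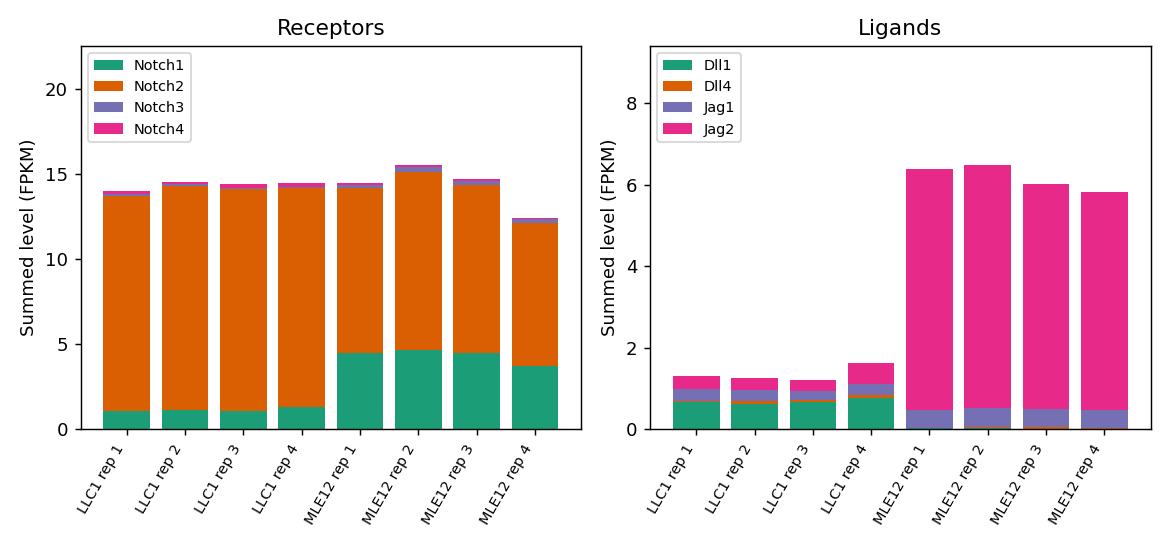
Summed level per length (FPKM, bars from 0) of the 4 receptors (left) and the 4 ligands (right) in each library. The receptor bars reach similar heights in both lines with a larger Notch1 part in MLE12, and the ligand bars are 1.22 to 1.62 FPKM in LLC1 and 5.82 to 6.49 FPKM in MLE12, where Jag2 fills most of each bar.

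In LLC1 the order of level per length was led by Notch2 (12.9 ± 0.226 FPKM), far above Hes1 (1.41 ± 0.311 FPKM) and Notch1 (1.15 ± 0.112 FPKM), whose ranges overlapped. Dll1 (0.675 FPKM), Jag2 (0.358 FPKM) and Jag1 (0.260 FPKM) followed. Then came Notch4 (0.199 FPKM), which overlapped Jag1, and Notch3 (0.0834 FPKM) and Dll4 (0.0597 FPKM), which overlapped each other. Hey1 was last at 0. In MLE12 the target Hes1 led at 23.5 ± 3.91 FPKM, above 84.1% of the genes tested, while in LLC1 it was above 32.6% of them. Notch2 (9.62 ± 0.862 FPKM), Jag2 (5.69 ± 0.298 FPKM) and Notch1 (4.33 ± 0.433 FPKM) came next, each apart from its neighbour in the order on this length. Jag1 (0.449 FPKM), Notch3 (0.242 FPKM) and Notch4 (0.110 FPKM) lay lower, with Hey1 (0.0813 FPKM) within the range of Notch4. Dll1 and Dll4, at 0.0186 and 0.0185 FPKM, were last and did not differ beyond their spread. The table's length for Notch1, 14232 bases, exceeds its longest GENCODE transcript of 9488 bases, so its level per length is lower here than on transcript or coding length. The order depended on that choice. Per longest coding length Notch1 (8.11 ± 0.812) lay above Jag2 (6.17 ± 0.323) in MLE12, without overlap, and in LLC1 Jag1 (0.414) and Jag2 (0.388) overlapped in the reverse order. Hey1 (0.296) and Notch3 (0.280) in MLE12, and Dll4 (0.112) and Notch3 (0.0964) in LLC1, changed places too, with overlapping ranges.

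**Figure D3:**
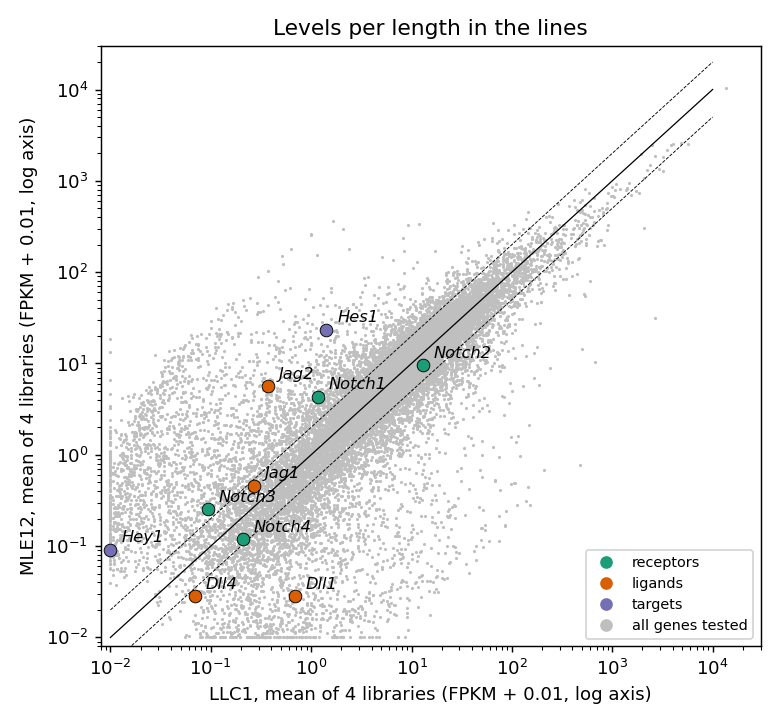
Mean level per length of each tested gene (grey) and of the 10 members (coloured by role) in LLC1 and MLE12, as FPKM + 0.01 on log axes. The solid line marks equal levels and the dashed lines a 2-fold difference; Hes1, Jag2 and Notch1 lie on the MLE12 side and Dll1 on the LLC1 side, while Notch2 lies close to equality at a high level.

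The other genes of the pathway were taken from lists of 107 further genes, of which 106 were in the table and 86 were tested. Of these, 40 (46.5%) were higher in LLC1, 37 (43.0%) were higher in MLE12 and 9 were not called. Both shares are close to those of all genes tested. Past a fold of 2 were 36 (41.9%), against 33.7% of all genes. The median log2 fold change was 0.04, and that of all genes tested was 0.02. Of the 106 genes, 76 reached 1 FPKM in at least 1 line, and 20 stayed below 0.1 FPKM in both.

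The glycosyltransferases that modify the extracellular repeats of the receptors differed gene by gene. Of 8 tested, 3 were higher in LLC1 and 5 in MLE12, with a median log2 fold change of -0.27. Lfng, the lunatic fringe enzyme that alters which ligands a receptor responds to, measured 0.805 ± 0.20 CPM (LLC1) and 23.5 ± 1.7 CPM (MLE12) (-4.86 ± 0.12). Rfng, the radical fringe gene, was also higher in MLE12 (-1.16 ± 0.08), and Mfng, the manic fringe gene, had 0 counts in LLC1 and 10 in MLE12. Poglut1, the O-glucosyltransferase of the receptor, was higher in LLC1 (62.2 ± 1.71 against 12.2 ± 0.757 CPM; 2.35 ± 0.06), and so was the O-fucosyltransferase gene Pofut1 (0.96 ± 0.05).

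The genes of receptor cleavage went both ways. Of 10 tested, 4 were higher in LLC1, 4 in MLE12 and 2 were not called (Furin and Aph1a), with a median of 0.03. Adam10, the main sheddase of ligand-bound receptors, measured 119 ± 7.17 CPM (LLC1) and 259 ± 15.4 CPM (MLE12) (-1.12 ± 0.05). Among gamma-secretase subunits, Ncstn (0.58 ± 0.05) and Psen2 (0.71 ± 0.11) were higher in LLC1. Aph1c (-2.26 ± 0.16) and Aph1b (0.47 ± 0.13) went in opposite directions, but they are near-identical copies in the mouse and the split of their reads is uncertain.

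Ubiquitin ligases and adaptors of ligand endocytosis and receptor turnover counted 7 higher in LLC1 and 8 in MLE12 of 15 tested (median -0.20). Neurl1b, a neuralized-type ligase that acts on ligands, measured 0.462 ± 0.108 CPM (LLC1) and 25.8 ± 0.768 CPM (MLE12) (-5.79 ± 0.11). Mib2, another ligase for ligands, was higher in LLC1 (1.83 ± 0.05), and its relative Mib1 was slightly higher in MLE12 (-0.25 ± 0.04). Nrarp, a feedback inhibitor that is itself a Notch target, measured 2.97 ± 0.156 CPM (LLC1) and 16.8 ± 1.24 CPM (MLE12) (-2.49 ± 0.09). Its direction was that of Hes1 and Hey1.

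The DNA-binding partner of the pathway went the opposite way. Rbpj measured 531 ± 16.7 CPM (LLC1) and 78.9 ± 5.11 CPM (MLE12) (2.75 ± 0.05, adjusted p = 6.9e-20). Rbpj has processed pseudogene copies in the mouse, so its read assignment is uncertain. Of the 10 nuclear activators tested, 4 were higher in LLC1, 4 in MLE12 and 2 were not called (Ep300 and Rbpjl). The acetyltransferase gene Kat2b was higher in MLE12 (-1.78 ± 0.05), and the coactivator gene Maml3 was higher in LLC1 (0.95 ± 0.07). Of 17 corepressor genes, 7 were higher in each line and 3 were not called (Spen, Ctbp2 and Tle2), and Tle1 alone passed a fold of 2 (1.21 ± 0.05, higher in LLC1).

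Of 8 ligands outside the canonical set 5 were tested, and 4 of these were called as higher in LLC1, where 40.7% of all genes were. The calls of Dlk1 and Dner could go only that way, since both passed the filter on low counts through their LLC1 libraries alone. Among the 4 were the secreted proteins Egfl7 (14.2 ± 0.639 CPM, LLC1, and 1.43 ± 0.142 CPM, MLE12; 3.31 ± 0.10) and Nov (2.75 ± 0.16). The others, Dlk1 and Dner, were rare and are named after their values were seen: Dlk1, an imprinted Delta-like gene, had 318 counts over the LLC1 libraries and 1 over the MLE12 libraries, and Dner had 115 and 6. Dlk2, a relative of Dlk1, was higher in MLE12 (-2.97 ± 0.24). Dll3, which acts within the cell as an inhibitor, was not tested, with 8 counts in LLC1 and 48 in MLE12.

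**Figure D4:**
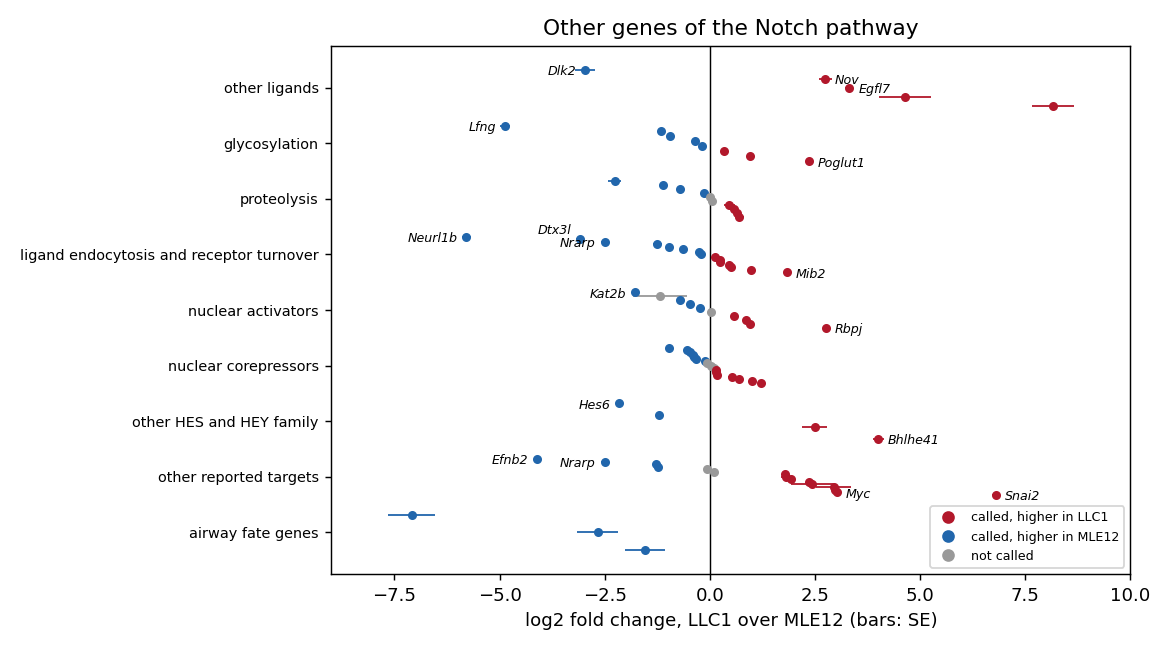
Log2 fold change, LLC1 over MLE12, of each tested gene of the pathway lists, with bars of 1 SE. Red points were called as higher in LLC1, blue as higher in MLE12 and grey points were not called. Most enzymes and cofactors lie near 0, while Lfng, Neurl1b and Efnb2 lie far on the MLE12 side. Rbpj and Snai2 lie on the LLC1 side, where Dlk1 (not labelled) lies further out than both.

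The wider HES and HEY family was sparse. Of 10 listed, 4 were tested. Hes6, which antagonises Hes1, measured 5.0 ± 0.667 CPM (LLC1) and 22.1 ± 1.39 CPM (MLE12) (-2.15 ± 0.09). Of the related repressors of the circadian and hypoxic responses, Bhlhe40 was higher in MLE12 (-1.21 ± 0.06) and Bhlhe41 in LLC1 (4.01 ± 0.13). Hes7, named after its values were seen, was also higher in LLC1 at a low level (1.21 against 0.212 CPM; 2.49 ± 0.29). Hes5, whose upstream window is printed above, had 0 counts in LLC1 and 8 in MLE12, Hey2 had 2 and 26, and Heyl had none in either line.

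Genes reported as Notch targets in some tissue did not share a direction. Of 15 tested, 9 were higher in LLC1, 4 in MLE12 and 2 were not called (Ccnd1 and Ccnd3), with a median of 1.81. Of all genes tested, 40.7% were called as higher in LLC1 and 40.9% in MLE12. Past a fold of 2 were 13 of the 15, against 33.7% of all genes. Whether the list departs from these shares was not tested. Of the 9 higher in LLC1, 2 passed the filter through LLC1 alone. The transcription factor gene Snai2 measured 40.0 ± 2.85 CPM (LLC1) and 0.354 ± 0.0267 CPM (MLE12) (6.81 ± 0.10), and Myc was higher in LLC1 as well (3.02 ± 0.04). Efnb2, the ephrin ligand known as a target in arteries, measured 11.3 ± 0.636 CPM (LLC1) and 194 ± 4.76 CPM (MLE12) (-4.10 ± 0.05). The inhibitor of differentiation gene Id3 was higher in MLE12 (-1.29 ± 0.06). Many of these genes answer to other pathways too. Airway fate genes were near absent: of 10 listed, 3 were tested and called as higher in MLE12, namely Scgb1a1, Foxj1 and Trp63 (named after their values were seen), all under 1 CPM in both lines. They passed the filter through their MLE12 libraries, so this count says nothing of a shared direction. Neurod1, which marks neuroendocrine cells, had no count.

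Genes whose levels resembled the leading member of each role were found by the Euclidean distance of log2(FPKM + 0.1) over the 8 libraries. Nearest to Notch2 were Kidins220 (distance 0.202), Mknk1 (0.210) and Tmem134 (0.220). Nearest to Jag2 were Pdk2 (0.506), Ralgps1 (0.522) and Daam2 (0.595). Among the nearest to Hes1 were the processed pseudogene Gm11942 (0.729), whose reads are uncertain, and Dusp1 (0.895). With 2 lines, such likeness reflects mainly a similar level in each line.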

How the data were processed

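Poly-A RNA of LLC1 and MLE12 cells was sequenced in 4 libraries per line as paired 100 nt reads, per the labels' protocols. The authors deposited raw counts per gene with gene name, position and a length. CASAVA, TopHat2, featureCounts and edgeR with build mm10 are named in the submitters' processing notes; their versions, the strand setting and the handling of multiple alignments are not given in the sources used here (the labels and the table). In each library more genes had exactly 2 counts than exactly 1 (LLC1 replicate 1: 1392 and 1130), as when both mates of a fragment are counted.

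Groups were the labelled cell lines. Separate cultures are not stated for the libraries, and p-values then reflect only the spread among these samples, possibly technical. Libraries of a line differed beyond counting noise (chi-square per degree of freedom 6.35 to 53.1). The counts were fitted in edgeR 4.0.16 (R 4.3.3) with filterByExpr, TMM factors (0.924 to 1.04), glmQLFit with robust estimation, glmQLFTest and, against a fold of 2, glmTreat, without covariates; the SE is the log2 fold change divided by the square root of F. The biological coefficient of variation was 7.10%. The script was tested on simulated data. FPKM used the deposited length. Biotypes, strands and coding lengths came from GENCODE M21 (mm10), and upstream sequences from RefSeq.

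The members and lists were chosen with earlier results of these data known. Named genes are the members, Rbpj, Dll3, Nrarp, Hes5, Hey2, Heyl, up to 3 called genes in each list and direction, ranked by size of change among those of at least 1 FPKM in the higher line (some are given), and the 3 genes of nearest level to the leading member of each role. A few genes under this rule are not reported here. Alternatives were DESeq2 1.42.0, limma-voom (limma 3.58.1), scaling by DESeq2 size factors, by upper quartiles or by library totals, no filter, at least 1 CPM in 4 libraries, the replicate number as a block, each library left out, TPM and coding lengths.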

Additional observations from a re-analysis of the deposited data

How the results depend on the processing

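The direction and call of the 8 tested members were kept in each of the 16 alternative fits (128 values read from them). The smallest log2 fold changes were 0.33 for Notch2 (library totals alone) and 0.70 for Notch4 (without MLE12 replicate 1), whose edgeR, DESeq2 or limma adjusted p ran from 0.00049 to 0.0083. With each library left out in turn, 3 to 4 members were called as higher in LLC1 and 5 to 6 in MLE12; past a fold of 2 these were 1 to 2 and 4 to 5. The members added were Dll4 and Hey1, which then passed the filter on low counts. Each could pass only through the line where it was higher, so the direction of these added calls was fixed by the filter. The second LLC1 member past a fold of 2 came without MLE12 replicate 3, and was Dll4 (log2 fold change 2.05 ± 0.57, edgeR adjusted p against a fold of 2 = 0.037). In the other edgeR fits that held Dll4, the adjusted p against a fold of 2 was 0.087 to 0.28. Deviations of same-numbered libraries were weakly correlated (r -0.06 to 0.11), and 2 of 4 LLC1 libraries correlated best with their own number. Such weak values cannot decide whether the numbers mark pairs, and the main fit used no pairing. With the replicate block 14795 genes were called in place of 15132, and the members stayed at 3 and 5.

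Shares within the receptors and ligands depended on the length used and not on TPM. With the longest coding length, the Notch1 share was 10.4% in LLC1 and 36.6% in MLE12, and that of Notch2 87.9% and 61.5%. Dll1 made up 59.2% of the ligand level in LLC1 and 0.512% in MLE12, Jag2 17.2% and 88.7%, and Jag1 10.3% in MLE12. The leading gene of each line stayed the same. Dll4, Hey1 and the MLE12 level of Dll1 rest on 0 to 34 counts per library (0 in each LLC1 library for Hey1) and are limited by depth.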
